A study of Saccharomyces cerevisiae with 5 samples.

Results

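The transcripts described here encode the machinery that brings proteins into yeast mitochondria and folds them there. The 30 genes were chosen by their function: 7 subunits of the translocase of the outer membrane (TOM), 5 small chaperones of the intermembrane space, 3 subunits of the carrier translocase (TIM22 complex), 4 of the presequence translocase (TIM23 complex), 6 of the import motor, 3 folding chaperones of the matrix and 2 subunits of the processing peptidase. Earlier results of these data were known when they were chosen. Each had 1 probe set of its own, and all 30 of the 30 passed the filter on low signal, out of 5656 genes with a single-gene probe set and 4242 genes tested. The yeast is Saccharomyces cerevisiae. The mutant was the isogenic Δrsf2 strain, which lacks RSF2 (YJR127C, also called ZMS1), a gene for a zinc-finger protein, and has 2 biological replicates. The wild type was its parent BY4741, a haploid laboratory strain with auxotrophic markers that the mutant shares, with 3 biological replicates. Both grew in 50 ml of rich medium with glycerol as the sole carbon source (YPG) to an A600 of 0.6, and poly(A) RNA was hybridised to 1 one-colour Affymetrix array per culture. The comparison asks which transcripts differ without RSF2 during respiratory growth.

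Most mitochondrial proteins are encoded in the nucleus, made in the cytosol and imported as precursors. Receptors and the channel of the TOM complex take them across the outer membrane. From there, small chaperones carry hydrophobic carrier proteins to the TIM22 complex of the inner membrane, whereas precursors with a cleavable presequence pass through the TIM23 complex and are pulled into the matrix by a motor built on the Hsp70 protein Ssc1. In the matrix the presequence is cut off and the protein is folded by Ssc1 or by the Hsp60 chaperonin. Cells that respire on glycerol depend on this route for the subunits of the respiratory chain.

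Signals are MAS5 intensities in arbitrary units, rescaled so that each array has the same 2% trimmed mean of 500. This step mattered for 1 array, since the deposited trimmed mean was 100.1 in Δrsf2 replicate 1 and 500.3 to 500.7 on the other 4. RSF2 was checked first. Its rescaled signal was 9.49 and 3.30 in Δrsf2, against 204, 254 and 416 in the wild type, so each label matched its genotype. With values under 28.1 set to that floor, RSF2 was at least 9.90-fold lower in Δrsf2, and its mean lay under the signal filter, so that it was not tested. The arrays also fell into 2 sets by the CreX spike-in control, which was 59709 in the first Δrsf2 array and 2715 in the second, against 56025, 9393 and 3417 in wild-type replicates 1 to 3. Replicate 1 of each strain forms the high set and the other 3 arrays the low set. The ratio of 3′ to 5′ signal for ACT1, a measure of RNA quality, was 4.91 and 1.55 in Δrsf2, against 2.76, 2.28 and 1.69 in the wild type. Both quantities differ between the Δrsf2 arrays. They also rank the arrays in the same order, so their effects cannot be separated with these arrays. The ACT1 ratio still differs between the strains within each set. It was 4.91 in Δrsf2 against 2.76 in the high set, and 1.55 against 2.28 and 1.69 in the low set. Results are given also within each spike-in set, but that does not hold RNA quality level. Any part of RNA quality in them was not tested.

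As a group, the 30 transcripts were slightly lower in Δrsf2 by value, and none of them passed the test. Of the 30, 20 were lower by value and 10 higher, where 52.3% of all genes tested were lower. The median log2 difference of the 30 was -0.27, and that of all genes -0.03. With the signal filter at the 50th percentile, 18 of 28 members were lower against 58.3% of all genes, and the gap between these medians was -0.13 instead of -0.25. The median of the 30 moved with single arrays, to -0.11 without Δrsf2 replicate 1, -0.16 without wild-type replicate 2 and -0.41 without wild-type replicate 1. That of all genes moved too, to 0.03, 0.03 and -0.20, so the gap was -0.14, -0.19 and -0.22. With single arrays left out, 19 to 24 of the 30 were lower, where 45.8% to 62.5% of all genes were. The fitted differences ran from -0.94 for TIM17 to 0.39 for TOM7, so no member differed 2-fold, as 8.32% of all genes did. By limma, 0 of the 30 had an adjusted p under 0.05 or an unadjusted p under 0.05. Over all genes 0% passed after adjustment, and 2.29% and 0.943% had an unadjusted p under 0.05 on the lower and the higher side. Every member had a limma adjusted p of 0.9996. The median half-width of the 95% intervals was 1.22 on the log2 scale, and 26 of the 30 intervals reached a log2 difference of -1 or beyond. The arrays therefore cannot tell a 2-fold lower level from an equal one for most of these genes. In RNA from a whole culture, fewer cells with a transcript and less of it per cell cannot be told apart.

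**Figure D1:**
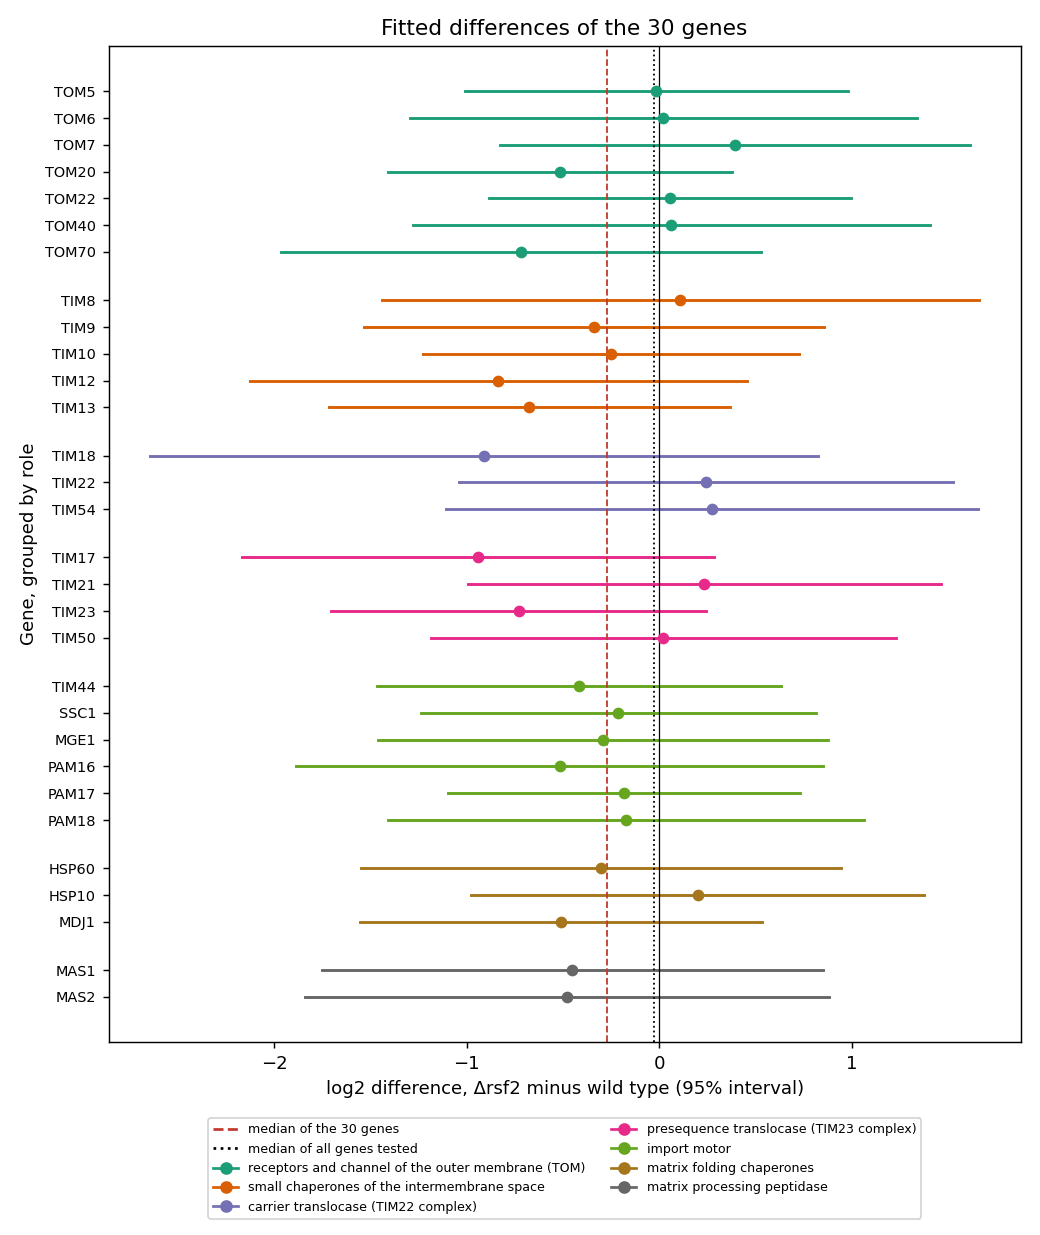
Fitted log2 differences (Δrsf2 minus wild type, horizontal axis) of the 30 genes, with 95% intervals from limma and colours for the roles. All intervals include 0; the dashed line marks the median of the 30 genes at -0.27 and the dotted line that of all genes tested at -0.03.

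Array by array, the shift was small and 1 wild-type array lay lowest. Relative to each gene's wild-type mean, the median of the 30 log2 signals was -0.27 and -0.11 on the Δrsf2 arrays, against -0.48, 0.13 and 0.15 on the wild-type arrays. The groups therefore overlapped in this median. The median of all genes tested varied between arrays too, at -0.08 and 0.02 in Δrsf2 and -0.33, 0.08 and 0.24 in the wild type. After subtracting it, the import genes were at -0.19 and -0.13 in Δrsf2, against -0.15, 0.05 and -0.09 in the wild type, which still overlapped.

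**Figure D2:**
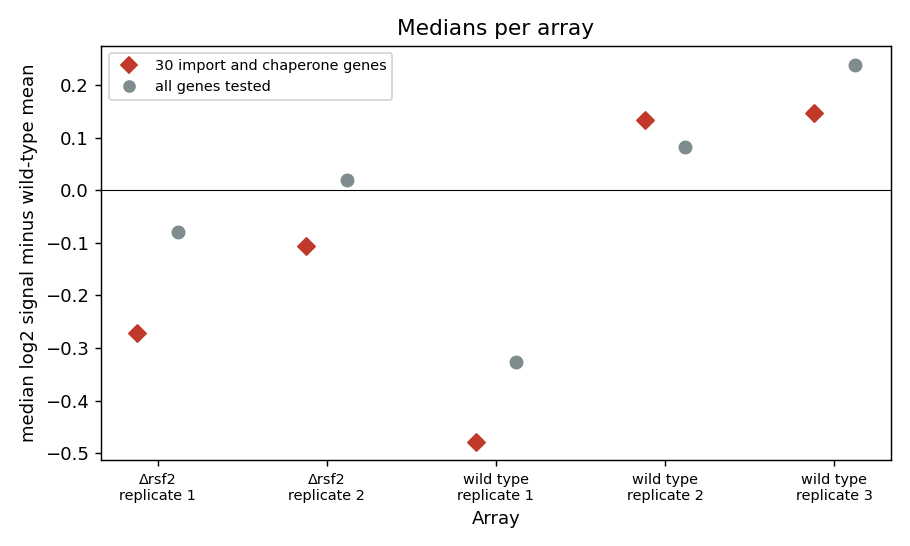
Median log2 signal on each array relative to the wild-type mean of each gene, for the 30 genes (diamonds) and all genes tested (circles). Both medians are lowest in wild-type replicate 1, at -0.48 and -0.33.

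The spike-in sets allow the comparison to be made on 2 separate groups of arrays. Between Δrsf2 replicate 1 and wild-type replicate 1 the median log2 difference of the 30 genes was -0.06, where that of all genes was 0.21. Between Δrsf2 replicate 2 and the mean of wild-type replicates 2 and 3 it was -0.33, where that of all genes was -0.11. In both sets 13 of the 30 genes (43.3%) were lower, as 19.8% of all genes were, and 3 were higher in both, as 24.2% of all genes were. Measured against the median of all genes within each set, 16 of the 30 (53.3%) lay below it in both sets and 4 lay above it in both, where 22.7% of all genes lay below and as many above. The count below was 15 without wild-type replicate 2 and 14 without wild-type replicate 3. With quantile normalisation of the arrays the count below was 11 of 30 against 22.5%, and the gap between the medians of the 30 and of all genes in the high set was -0.091 instead of -0.27. No test was made of these counts. With the spike-in set as a term in the limma fit, the lowest adjusted p of a member was 0.758 and 0% of all genes passed.

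**Figure D3:**
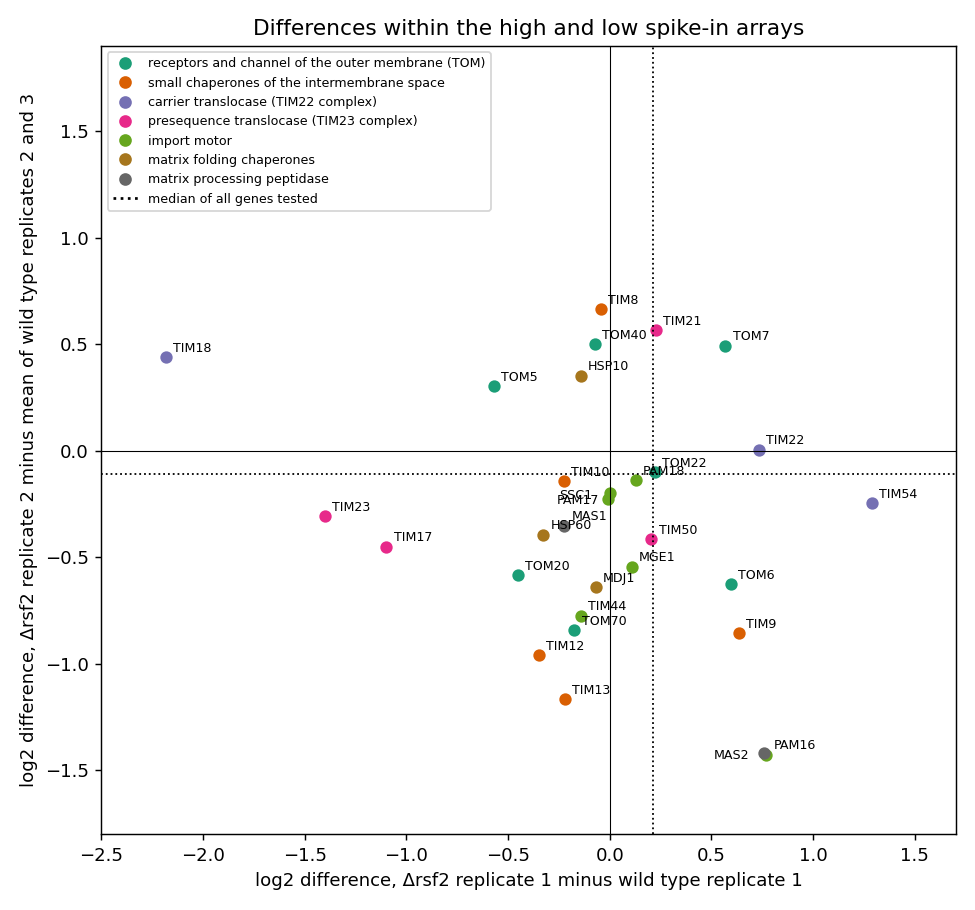
Log2 difference of each of the 30 genes in the arrays of high CreX signal (horizontal axis, Δrsf2 replicate 1 minus wild-type replicate 1) and of low CreX signal (vertical axis, Δrsf2 replicate 2 minus the mean of wild-type replicates 2 and 3). Dotted lines mark the medians of all genes at 0.21 and -0.11, and 16 of the 30 genes lie in the lower left field that they bound.

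Groups without overlap were found for 3 of the 30 genes, TOM20, TIM13 and TIM23, each lower in Δrsf2, where 8.25% of all genes tested were lower without overlap. None of the 30 was higher without overlap, where 6.74% of all genes were. The share on the lower side is near that of all genes. The count depends on the scaling, since it was 7 of 30 with quantile normalisation and 7 of 30 with centring on array medians, where 12.6% and 11.3% of all genes were lower without overlap. TOM20 and TIM23 were among the 7 under both scalings, and TIM13 under neither. TOM70, TIM12, PAM17 and MDJ1 joined under both.

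In the outer membrane, the receptor genes TOM20 and TOM70 lay lowest by value, and the other 5 TOM genes lay near or above their wild-type level. TOM20 (YGR082W), the receptor for presequences, had a signal of 1001 and 909 in Δrsf2, against 1370, 1374 and 1349 in the wild type. Both mutant arrays lay below a very narrow wild-type range, with means of 955 ± 64.9 (SD, n = 2) in Δrsf2 and 1365 ± 13.7 (SD, n = 3) in the wild type. Its fitted log2 difference was -0.52 ± 0.41 (SE), and it was -0.45 in the high spike-in set and -0.58 in the low one. TOM70 (YNL121C), the receptor for carrier proteins, had 284 and 430 in Δrsf2, against 320, 824 and 722 in the wild type. Its groups overlapped through the low wild-type replicate 1, at a log2 difference of -0.72 ± 0.57 (SE). TOM22 (YNL131W), the central receptor that also organises the complex, had 1460 and 1204 in Δrsf2, against 1251, 1625 and 1026 in the wild type, and lay at 0.05 ± 0.43 (SE), or -0.01 with centring on array medians.

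TOM40 (YMR203W), the channel itself, had 300 and 838 in Δrsf2, against 315, 431 and 816 in the wild type. Both arrays of the high spike-in set were the lowest for this gene, whatever the strain, and the fitted log2 difference was 0.06 ± 0.61 (SE). The small subunits that shape the complex, TOM5, TOM6 and TOM7, had log2 differences of -0.02, 0.02 and 0.39; with quantile normalisation the first 2 turned sign, to 0.10 and -0.31. TOM6 (YOR045W) was the least even of them, with 7915 and 2919 in Δrsf2, against 5233, 5227 and 3889 in the wild type. The mutant arrays lay on either side of the whole wild-type range. Of the 7 TOM genes 3 were lower by value and their median was 0.02, which turned to -0.04 with centring on array medians.

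Among the small chaperones that escort hydrophobic precursors between the membranes, 4 of 5 lay lower by value at a median of -0.34 on the log2 scale. That median was -0.0092, with 3 of 5 lower, without wild-type replicate 2, and -0.64 without wild-type replicate 1. The median of all genes in these settings was 0.03 and -0.20. TIM13 (YGR181W) had 2479 and 1192 in Δrsf2, against 2886, 2769 and 2588 in the wild type. Δrsf2 replicate 1 lay just under the lowest wild-type array and replicate 2 far under it, with a fitted log2 difference of -0.68 ± 0.48 (SE). It was -1.20 without Δrsf2 replicate 1 and -0.15 without Δrsf2 replicate 2. TIM8 (YJR135W-A), its partner in 1 complex, had 161 and 606 in Δrsf2, against 166, 316 and 462 in the wild type. TIM8 lay at 0.11 ± 0.71 (SE), or -0.15 with quantile normalisation. The partners therefore parted in Δrsf2 replicate 2, which was the highest array for TIM8 and the lowest for TIM13. Whether the 2 genes differ in response was not tested.

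TIM9 (YEL020W-A) and TIM10 (YHR005C-A) form the other such complex, and their log2 differences were -0.34 ± 0.55 and -0.25 ± 0.45 (SE). TIM9 had 706 and 645 in Δrsf2, against 454, 1587 and 861 in the wild type, so the mutant arrays lay inside a 3.50-fold wild-type range. TIM10 had 1067 and 1483 in Δrsf2, against 1249, 2092 and 1283. TIM12 (YBR091C), which docks these chaperones on the TIM22 complex, had 192 and 266 in Δrsf2, against 244, 484 and 555 in the wild type. It was 1.78-fold lower by geometric mean, with an overlap of Δrsf2 replicate 2 and wild-type replicate 1 and a log2 difference of -0.84 ± 0.59 (SE).

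**Figure D4:**
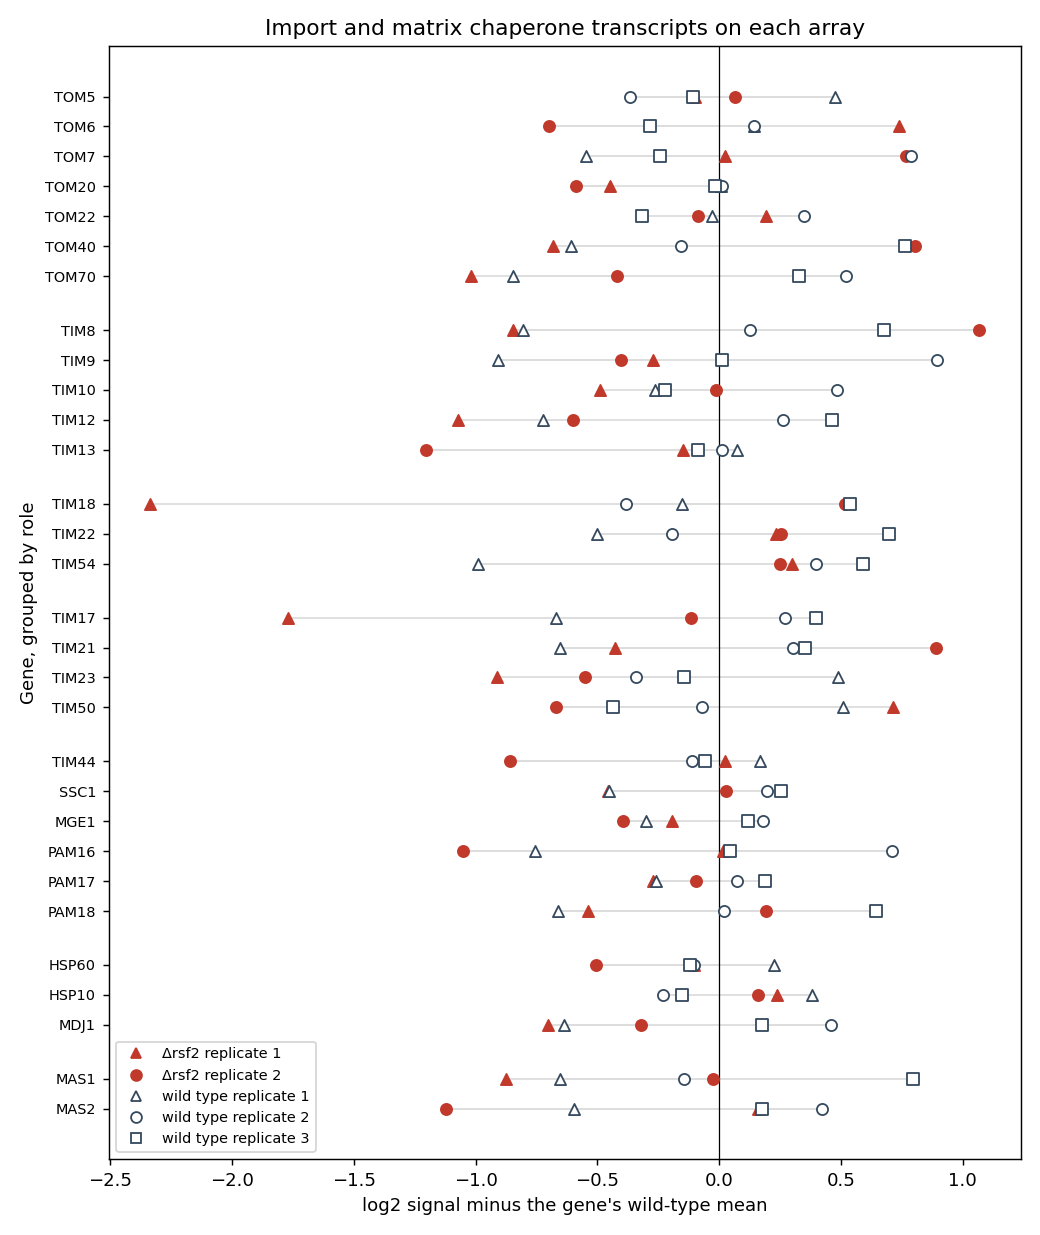
Log2 signal of the 30 genes on each array relative to the gene's wild-type mean, with Δrsf2 arrays filled and wild-type arrays open; triangles are the arrays of high CreX signal. TIM18 and TIM17 in Δrsf2 replicate 1 lie farthest to the left, at -2.34 and -1.77, and for most genes the filled and open symbols mix.

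In the carrier translocase, TIM22 and TIM54 lay within the wild-type range and TIM18 was split between the mutant arrays. TIM22 (YDL217C), the channel, had 334 and 339 in Δrsf2, against 201, 248 and 460 in the wild type, with a log2 difference of 0.24 ± 0.59 (SE). TIM54 (YJL054W), which helps to hold the complex together, had 337 and 325 in Δrsf2, against 138, 361 and 412, at 0.27 ± 0.63 (SE). For both genes the mutant arrays agreed closely and lay within the wild-type spread. TIM18 (YOR297C), a membrane subunit, had 55.4 and 400 in Δrsf2, against 252, 215 and 406 in the wild type. Its fitted log2 difference of -0.91 ± 0.79 (SE) rested on Δrsf2 replicate 1, and was 0.52 without that array. The 7.21-fold gap between the mutant arrays was the widest of the 30 genes.

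The channel genes of the presequence translocase lay lower in Δrsf2 by value. TIM23 (YNR017W), the channel protein, had 910 and 1171 in Δrsf2, against 2402, 1352 and 1550 in the wild type. The groups did not overlap, and means were 1041 ± 184 (SD, n = 2) in Δrsf2 and 1768 ± 558 (SD, n = 3) in the wild type. TIM23 was 1.66-fold lower by geometric mean, with a log2 difference of -0.73 ± 0.44 (SE) and a 95% interval of -1.70 to 0.24. Within the spike-in sets it was -1.40 and -0.31. TIM17 (YJL143W), its essential channel partner, had 558 and 1754 in Δrsf2, against 1195, 2292 and 2505 in the wild type. Both strains were lower in the high spike-in set, and Δrsf2 lay below the wild type within each set, at -1.10 and -0.45. The fitted log2 difference of TIM17 was -0.94 ± 0.56 (SE), with an unadjusted limma p of 0.12. It rested largely on Δrsf2 replicate 1, since it was -0.12 without that array and -1.77 without Δrsf2 replicate 2.

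TIM50 and TIM21, which belong to the same complex, did not share that shift in the fitted values. TIM50 (YPL063W), the receptor that hands precursors to the channel, had 964 and 370 in Δrsf2, against 837, 560 and 435 in the wild type, with a log2 difference of 0.02 ± 0.55 (SE) that turned to -0.04 with centring on array medians. TIM21 (YGR033C), which links the complex to the TOM complex and to the respiratory chain, had 402 and 1002 in Δrsf2, against 343, 666 and 689, at 0.23 ± 0.56 (SE). For both, 1 mutant array was the highest of the 5 and the groups overlapped. The difference between these 2 genes and the channel genes was not tested.

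**Figure D5:**
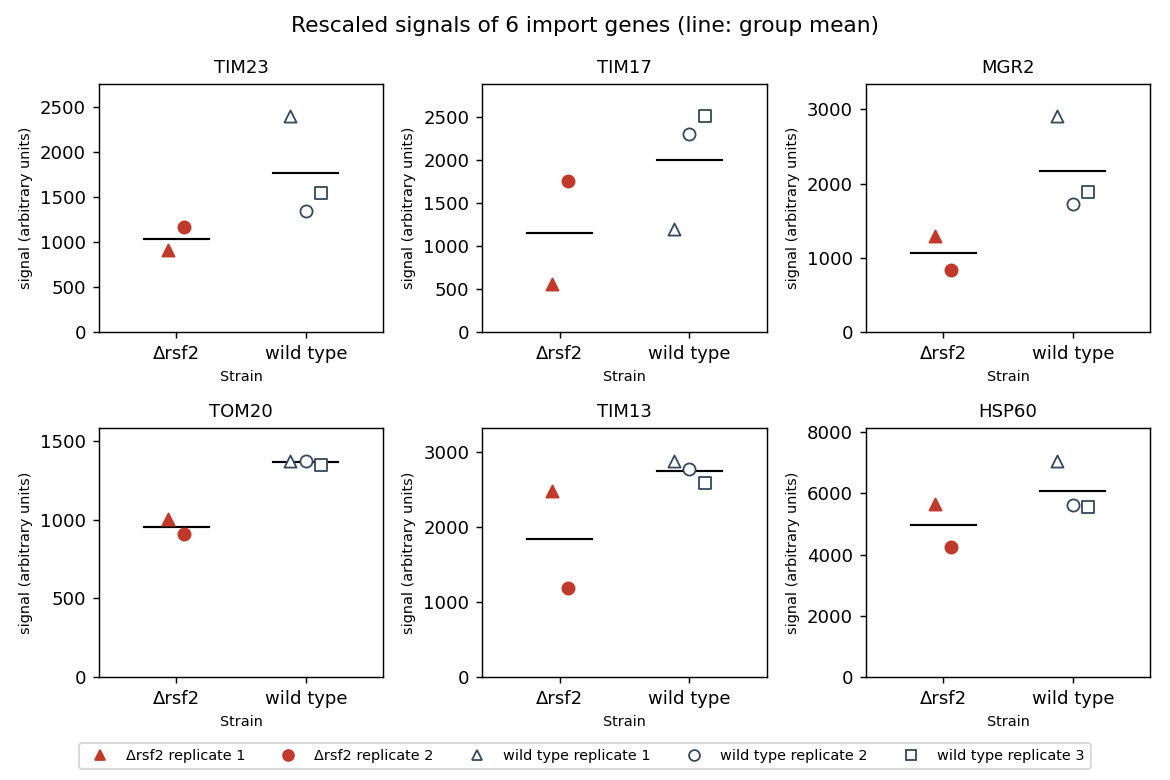
Rescaled signals in arbitrary units of TIM23, TIM17, MGR2, TOM20, TIM13 and HSP60 on each array, Δrsf2 on the left and wild type on the right of each panel; lines are group means and triangles are the arrays of high CreX signal. The groups do not overlap for TIM23, MGR2, TOM20 and TIM13, and overlap for TIM17 and HSP60. The panels are a selection, with MGR2 from the list of further import genes. Of the 30 genes 3 were lower without overlap, as were 8.25% of all genes tested.

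All 6 genes of the import motor were lower by value, within a narrow band of log2 differences from -0.52 to -0.17 and with a median of -0.25. Without either Δrsf2 array 4 of the 6 were lower, and without wild-type replicate 3 it was 5 of 6. SSC1 (YJR045C), the Hsp70 that pulls precursors in, had 532 and 744 in Δrsf2, against 533, 837 and 871 in the wild type. Δrsf2 replicate 1 and wild-type replicate 1 were nearly equal for this gene, and its log2 difference was -0.21 ± 0.47 (SE). TIM44 (YIL022W), which tethers Ssc1 to the channel, had 705 and 382 in Δrsf2, against 778, 641 and 666, with only Δrsf2 replicate 2 below the wild-type range and a log2 difference of -0.42 ± 0.48 (SE). MGE1 (YOR232W), the nucleotide exchange factor of Ssc1, had 329 and 286 in Δrsf2, against 305, 426 and 408 in the wild type, and lay at -0.29 ± 0.53 (SE). All 3 of these genes had overlapping groups.

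PAM18 (YLR008C) is the J-protein that stimulates Ssc1, and PAM16 (YJL104W) the J-like protein that restrains it. PAM16 had 408 and 195 in Δrsf2, against 240, 661 and 417 in the wild type, and its direction differed between the spike-in sets, at 0.77 and -1.43. PAM18 had 325 and 538 in Δrsf2, against 297, 477 and 735, at 0.13 and -0.14 in the 2 sets. PAM17 (YKR065C), which helps to organise the motor, varied little between arrays, with 1027 and 1159 in Δrsf2, against 1035, 1301 and 1410 in the wild type. Its log2 difference was -0.18 ± 0.42 (SE), with a 95% interval of -1.10 to 0.73. In the high spike-in set 3 of the 6 motor genes were lower in Δrsf2 and their median was 0.05; in the low set all 6 were lower and it was -0.38. Relative to the median of all genes within each set, 5 of the 6 were below it in both sets, with PAM16 as the exception, where 22.7% of all genes were.

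Of the folding chaperones, HSP60 (YLR259C), which forms the barrel of the chaperonin, had 5641 and 4264 in Δrsf2, against 7073, 5629 and 5571 in the wild type. Only 1 mutant array lay below the wild-type range, though the difference was -0.33 and -0.39 within the spike-in sets and -0.30 ± 0.57 (SE) in the fit. HSP10 (YOR020C), its lid, had 5157 and 4887 in Δrsf2, against 5695, 3728 and 3934 in the wild type, and lay at 0.20 ± 0.54 (SE). Relative to HSP10 and to their wild-type mean ratio, HSP60 was at -0.34 and -0.67 in Δrsf2 on the log2 scale, against -0.16, 0.12 and 0.03 in the wild type. The ratio was thus lower in both mutant arrays than in each wild-type array, an observation made after the values were seen and not tested. It was picked from several partner pairs. The same ratio overlapped between the strains for TIM9 and TIM10, TIM8 and TIM13, TIM17 and TIM23, and PAM16 and PAM18. It also overlapped for MAS1 and MAS2, SSC1 and MGE1, and TIM22 and TIM54. How often a ratio of any pair of genes separates these arrays was not counted. MDJ1 (YFL016C), the J-protein that works with Ssc1 in folding, had 590 and 769 in Δrsf2, against 619, 1323 and 1085, at -0.51 ± 0.48 (SE).

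The 2 subunits of the peptidase that removes presequences had like fitted differences from unlike arrays. MAS1 (YLR163C) had 258 and 464 in Δrsf2, against 301, 428 and 821 in the wild type, and a log2 difference of -0.45 ± 0.59 (SE). This was -0.026 when Δrsf2 replicate 1 was left out and -0.88 when Δrsf2 replicate 2 was, and -0.054 without wild-type replicate 3. MAS2 (YHR024C) had 190 and 78.2 in Δrsf2, against 112, 228 and 192, at -0.48 ± 0.62 (SE). MAS1 was lowest in Δrsf2 replicate 1 and MAS2 in Δrsf2 replicate 2, and both groups overlapped.

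The spread between arrays of 1 strain was wide for many of these genes. In the wild type, 15 of the 30 differed over 2-fold between their highest and lowest array, or 50.0%, against 44.2% of all genes. Between the 2 mutant arrays 10 of the 30 did, or 33.3%, against 39.7% of all genes. Part of this spread followed the spike-in sets, and the arrays of the high set also have the highest ACT1 ratios. Both arrays of high CreX signal lay below the other 3 for 12 of the 30 genes (40.0%), among them TOM40, TOM70, TIM8, TIM12 and TIM17, where 30.5% of all genes did so. They lay above the other 3 for 5 of the 30, among them HSP60 and HSP10, where 9.74% of all genes did so.

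The rest of the pathway was read from a list of 28 further genes for sorting, insertion, processing and folding, of which 20 passed the signal filter. By limma 0 of the 20 passed after adjustment, 13 were lower by value and 7 higher, and the median log2 difference was -0.13. MGR2, a small subunit of the TIM23 complex beside TIM17 and TIM23, had 1296 and 835 in Δrsf2, against 2908, 1722 and 1893 in the wild type. Both mutant arrays lay below each wild-type array, its log2 difference was -1.02 ± 0.45 (SE), and it was -1.17 and -1.11 within the spike-in sets. Its unadjusted limma p of 0.0445 was the smallest of the 20, and its adjusted p was 0.9996. Of all genes tested, 2.29% were lower with an unadjusted p under 0.05. CPR3, the cyclophilin of the matrix, had 1125 and 2241 in Δrsf2, against 2656, 2448 and 3403, and IMP2, a subunit of the inner membrane peptidase, had 650 and 574, against 785, 1104 and 1198 in the wild type. Their log2 differences were -0.82 ± 0.48 and -0.73 ± 0.44 (SE), again without overlap.

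ZIM17, which keeps Ssc1 soluble, lay at -0.46 ± 0.44 (SE) without overlap, and the same held for SAM50, the core of the machinery that sorts barrel proteins into the outer membrane, at -0.36 ± 0.43 (SE); SAM50 was singled out after its value was seen. These are 5 of the 20 genes tested, where 8.25% of all genes were lower in the same way. MBA1, which helps to insert proteins made inside mitochondria, lay at -0.79 ± 0.58 (SE), and ERV1, the oxidase of the disulfide relay that traps small proteins between the membranes, at -0.48 ± 0.50 (SE), both with overlap.

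Chaperones of the cytosol, many of which share heat-responsive control with those of the matrix, were set beside them. Of 13 such genes 8 were higher by value in Δrsf2 and 5 lower, the lowest at a log2 difference of -0.58. The median of the 13 was 0.53, and 0 passed after adjustment by limma. SSA4, an inducible Hsp70, had 3924 and 2288 in Δrsf2, against 1360, 340 and 908 in the wild type, and was the only one of the 13 without overlap, where 6.74% of all genes were higher without overlap. SSA3 lay at 1.97 ± 0.75 (SE) and HSP82, an Hsp90 protein, at 1.14 ± 0.66 (SE), each with overlap. SSA4, SSA3 and HSP82 were named because they had the smallest p of the 13, so they do not stand for the list. The median of the 13 was 0.25 with quantile normalisation, 0.16 without Δrsf2 replicate 2 and 0.19 without wild-type replicate 1. In the matrix SSC1, HSP60 and MDJ1 lay at -0.21, -0.30 and -0.51, and CPR3 and ZIM17 at -0.82 and -0.46. HSP10 and HSP78 lay at 0.20 and 0.03. ECM10, a matrix Hsp70 under the signal filter, was higher by value in Δrsf2, but it was not tested and is not counted here. The matrix chaperones named here thus did not all share 1 direction by value, and the difference between the 2 groups of chaperones was not tested.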

How the data were processed

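The deposited table gives one linear signal intensity for each probe set on each array. Per the submitters' processing notes the authors used MAS5; the version, the settings and any detection calls are not given in the sources used here. In all, the table holds 9335 probe sets: 6504 with a single gene in GEO's platform annotation, 328 with several genes, 2443 with none listed and 60 controls. Genes were named through the yeast gene table of assembly R64. Each array was rescaled to a 2% trimmed mean of 500, values under the 10th percentile (28.1) were raised to it, log2 was taken and the brightest probe set per gene was kept. Genes with a mean signal below 129, the 25th percentile, were not tested. Strains were compared with limma 3.58.1 in R 4.3.3 (lmFit, eBayes with trend, two-sided) on all 5 arrays without covariates, and p-values were adjusted by Benjamini-Hochberg over 4242 genes. The fit was tested on simulated data. Errors are SD of signals or SE of fitted log2 differences.

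The members and gene lists were chosen with earlier results of these data known, and the count against set medians was added after seeing the data. Named genes were all 30 members, RSF2, and by smallest p 6 further import genes and 3 cytosolic chaperones. SAM50, HSP78, ECM10 and TOM71 fall outside that rule and were named after their values were seen. Spike-in sets come from the CreX control signals, not from a label. The titles call the samples biological replicates. The small number of arrays limits precision, and rescaling hides any change in total mRNA per cell. Alternatives covered scaling, floor, filter, probe sets, limma settings, single arrays and blocks.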

Additional observations from a re-analysis of the deposited data

How the results depend on the processing

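Of the 30 genes, 0 passed an adjusted p of 0.05 in the fit or in any alternative that gives a test, and the lowest was 0.071 (TIM17 without Δrsf2 replicate 2). The median of the 30 was negative in every alternative and 11 of the 30 genes kept their sign in all of them; the filter at the 50th percentile left out TIM18 and MAS2. Over all genes the limma count past the threshold was 0, with 0 to 67 when single arrays were left out: 41 without Δrsf2 replicate 1 and 67 without Δrsf2 replicate 2, where the lone mutant array is assumed to vary like the wild type. It was 2 with a replicate block, HPF1 and SHH3, and the block changed no call among the 30. Deviations of same-numbered arrays from their group means correlated at r = 0.27 for number 1 and r = -0.09 for number 2. With 2 Δrsf2 arrays the Δrsf2 deviations mirror each other, so the values are not separate checks and cannot decide on pairing. The titles state no pairing, and the main fit used none. Members lower without overlap numbered 7 with quantile normalisation, 7 with median centring, and 3 to 14 with single arrays left out, namely 14 without wild-type replicate 1, 10 without Δrsf2 replicate 1 and 14 without Δrsf2 replicate 2, where 26.4%, 25.3% and 29.9% of all genes did so; fewer arrays make overlap rarer. The median of the further import genes was -0.35 with the filter at the 50th percentile, -0.38 with array weights and -0.33 in the low CreX set. It was smaller in size, at -0.034 with no filter, -0.026 in the high CreX set and -0.090 with the mean over probe sets. With single arrays left out it ran from -0.38 to -0.10. That of the cytosolic chaperones was 0.25 with quantile normalisation, 0.30 with the CreX set as a block, 0.33 with array weights, and 0.16 to 0.42 with single arrays left out. Among the genes that kept their sign, values with single arrays left out ran from -0.59 to -0.45 for TOM20, -1.14 to -0.42 for TOM70, -0.49 to -0.0092 for TIM10, -1.20 to -0.60 for TIM12, -1.20 to -0.15 for TIM13, -1.77 to -0.12 for TIM17, -0.91 to -0.49 for TIM23, -0.31 to -0.089 for PAM17, -0.51 to -0.10 for HSP60, -0.83 to -0.28 for MDJ1 and -0.88 to -0.026 for MAS1.

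Signs turned for 19 genes, all with small or uneven differences, and the cause was not tested. With quantile normalisation TOM5 was at 0.10, TOM6 at -0.31 and TIM8 at -0.15. With median centring TOM6 was at -0.041, TOM22 at -0.0079 and TIM50 at -0.040. With array weights TOM5 was at 0.27, TOM6 at -0.045, TOM7 at -0.15, TOM22 at -0.16, TIM8 at -0.076, TIM54 at -0.10 and TIM21 at -0.037. With the replicate block TOM6 was at -0.12, TOM22 at -0.10, TIM50 at -0.20 and PAM18 at 0.15, and with the CreX set as a block TOM6 was at -0.10 and TIM50 at -0.15. In the high CreX set TOM40 was at -0.072, TIM8 at -0.045, TIM9 at 0.64, MGE1 at 0.11, PAM16 at 0.77, PAM18 at 0.13, HSP10 at -0.14 and MAS2 at 0.76. In the low set TOM5 was at 0.30, TOM6 at -0.63, TOM22 at -0.10, TIM18 at 0.44, TIM54 at -0.25 and TIM50 at -0.42. With single arrays left out the values ran from -0.20 to 0.22 for TOM5, -0.70 to 0.74 for TOM6, -0.10 to 0.23 for TOM22, -0.68 to 0.80 for TOM40, -0.85 to 1.07 for TIM8, -0.79 to 0.11 for TIM9, -2.34 to 0.52 for TIM18, -0.0068 to 0.59 for TIM22, -0.22 to 0.57 for TIM54, -0.43 to 0.89 for TIM21, -0.67 to 0.71 for TIM50, -0.86 to 0.026 for TIM44, -0.46 to 0.028 for SSC1, -1.05 to 0.015 for PAM16, -0.54 to 0.19 for PAM18 and -1.12 to 0.16 for MAS2.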

Other observations

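Of the 28 further import genes 8 lay under the signal filter and were not tested. Their values are low, so small differences in background weigh heavily. ECM10, a matrix Hsp70 closely related to Ssc1, was singled out after its values were seen. Its signals were 111 and 214 in Δrsf2, against 98.9, 59.8 and 62.4 in the wild type, so its groups did not overlap. Among these 8 no other gene had groups without overlap. Of all genes tested, 6.74% were higher and 8.25% lower without overlap. The share higher without overlap among genes under the filter was not counted, so the separation of ECM10 is not read as a result. TOM71, named as the paralog of TOM70 and also after its values were seen, had 28.5 and 63.4 in Δrsf2, against 90.7, 62.3 and 68.0 in the wild type.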
